A study of Mus musculus with 6 samples.

Results

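Glutathione is made, spent and renewed by a short chain of enzymes, and 10 genes of that chain were followed in the renal cortex of mice with and without Prdm16. The members were Gclc, Gclm and Gss for synthesis, Gsr for recycling, Ggt1 for breakdown outside the cell, Hagh for release from a glyoxalase intermediate, and G6pdx, Idh1, Me1 and Nnt for NADPH. They were chosen by symbol, and all 10 had a row among the 26903 genes of the matrices in all 6 libraries. The libraries were single-cell RNA sequencing of renal cortex from mice aged 9 months, 3 wild type (WT) and 3 with a global Prdm16 knockout (KO), with 1 library per mouse. In the KO line, CRISPR-Cas9 editing had removed exon 2 of Prdm16 in every tissue, which shifts the reading frame after it. Kidney and other organs lost the gene together, so these libraries cannot place an effect in a single organ. No treatment was named for any of the 6 mice. The study bought C57BL/6J mice, and the sources used here do not give the strain of the KO line or say whether the WT mice were its littermates.

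Glutathione is the most abundant small thiol of most cells. Glutamate-cysteine ligase, with GCLC as its catalytic and GCLM as its modifier subunit, joins glutamate to cysteine in the rate-limiting step, and glutathione synthetase (GSS) adds glycine. Glutathione reductase (GSR) returns the oxidised form to the reduced form at the cost of NADPH. In the kidney, gamma-glutamyl transferase 1 (GGT1) sits on the brush border of the proximal tubule and splits glutathione in the tubular fluid, so that its amino acids can be taken up again. HAGH, the glyoxalase that follows GLO1, hydrolyses S-lactoylglutathione and gives glutathione back at the end of the detoxification of methylglyoxal. NADPH comes from the pentose phosphate pathway through G6PDX, from cytosolic isocitrate dehydrogenase (IDH1) and malic enzyme (ME1), and inside mitochondria from NNT, a transhydrogenase of the inner membrane driven by the proton gradient. C57BL/6J mice are known to carry a deletion within Nnt that most other strains lack.

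After filtering, 28303 cells were retained, 3505 to 6240 per library, with 22928919 to 35226865 unique molecular identifiers (UMIs, each counting a captured molecule) per library. Levels are UMIs of a gene scaled to a total of 1000000 UMIs of the same cells (CPM). The 27 clusters were named by marker genes, and each name means a likeness only: proximal convoluted tubule (PCT), descending limb (DLH), loop of Henle (LOH), macula densa (MD), distal convoluted tubule (DCT), connecting tubule (CNT), principal cells (PC), intercalated cells (IC), podocytes, endothelial cells, stromal cells, macrophages, and T and NK cells (TNK). These 13 classes had at least 10 cells in every library and were tested, and each of the 13 marker lists was at its highest in its own class. Within a class another list could still sum higher. In DLH the mean sums were 4971 CPM for the LOH list, 3611 CPM for the DLH list and 2479 CPM for the podocyte list. Prdm16, the targeted gene, was at 32.2, 26.8 and 27.1 CPM in the WT mice against 20.99, 25.03 and 23.4 CPM in the KO mice (log2 change −0.29, SE 0.12, adjusted p = 0.331 by edgeR), where SE is the standard error of the log2 change, so every KO library lay below every WT library while the difference did not pass the edgeR threshold. All 6 mice were labelled male, yet WT replicate 2 and KO replicate 1 carried Xist (298 and 306 CPM) and almost no Y-linked transcripts, against at most 0.218 CPM of Xist in the other 4 libraries. The calls of members are also given without these 2 libraries. Prdm16, the other pathway genes, the neighbouring genes and most values of members without a call are given with all 6 libraries only. Pairs of libraries shared 0 to 5 barcodes.

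Promoter windows were read from RefSeq (GRCm38.p6, 250 bases before to 50 after each annotated start) for 7 of the 10 members, 13 windows in all. Gclc, Gsr and Nnt had no entry. The antioxidant response element, through which NRF2 drives many glutathione genes, was searched by its core TGACNNNGC on both strands. It was found in 7 of the 13 member windows, in at least 1 window of Gclm, Me1, Ggt1, Hagh and G6pdx, and in no window of Gss and Idh1. Of all 32851 windows 12.4% held these letters. The 3 windows printed here belong to Gclm, a classical NRF2 target, and to Ggt1 and Hagh, members called between genotypes in at least 1 class, and capitals mark the core.
Gclm, chr3:122245307-122245606, plus strand: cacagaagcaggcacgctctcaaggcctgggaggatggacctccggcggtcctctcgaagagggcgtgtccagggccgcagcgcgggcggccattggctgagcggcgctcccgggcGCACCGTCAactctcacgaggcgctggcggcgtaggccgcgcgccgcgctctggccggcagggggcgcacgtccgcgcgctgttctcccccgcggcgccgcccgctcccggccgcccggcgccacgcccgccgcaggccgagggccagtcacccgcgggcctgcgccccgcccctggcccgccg
Ggt1, the third start, chr10:75571310-75571609, plus strand: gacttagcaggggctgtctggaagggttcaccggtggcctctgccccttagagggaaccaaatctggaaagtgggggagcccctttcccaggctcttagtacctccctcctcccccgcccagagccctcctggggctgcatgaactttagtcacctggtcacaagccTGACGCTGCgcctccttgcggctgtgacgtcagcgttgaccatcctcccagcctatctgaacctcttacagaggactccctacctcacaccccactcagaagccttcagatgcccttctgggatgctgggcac
Hagh, the second start, chr17:24850417-24850716, plus strand: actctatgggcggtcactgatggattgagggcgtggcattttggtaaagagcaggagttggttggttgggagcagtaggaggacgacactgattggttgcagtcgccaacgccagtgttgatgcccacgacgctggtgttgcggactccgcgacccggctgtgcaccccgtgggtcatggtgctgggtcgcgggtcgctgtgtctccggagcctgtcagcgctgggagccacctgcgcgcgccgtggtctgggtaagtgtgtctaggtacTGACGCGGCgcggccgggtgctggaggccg
The core began at position −134 from the start of transcription in Gclm, where it reads on the opposite strand, at −83 in Ggt1 and at 21 in Hagh. A match is a match of letters and not a shown binding site.

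The members differed widely in level between cell classes. PCT held 36 to 221 cells per WT library and 11 to 37 per KO library. KO replicate 1 gave only 19314 UMIs in this class, so its PCT levels rest on few UMIs. PCT cells held the highest mean of 6 members: Gclm (328 ± 134 CPM, SD over 6 libraries), Gss (78.3 ± 46.2), Gsr (117 ± 71.1), Ggt1 (187 ± 64.7), Idh1 (491 ± 190.5) and Me1 (217 ± 90.2). For Gclm, Gsr, Idh1 and Me1 the lowest PCT library stood above the highest library of the next class. Me1, the malic enzyme gene, was next in MD at 13.5 ± 9.64 CPM and had no UMI in TNK. Gss in PCT ran from 0 to 131 CPM over libraries, and its range overlapped that of DLH.

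Gclc followed another order than its partner subunit gene Gclm. It was highest in IC (469.5 ± 52.00 CPM), followed by DCT (353 ± 67.3), PC (307 ± 64.2) and CNT (261 ± 54.6), with LOH at 164 ± 58.7 CPM and podocytes lowest at 44.8 ± 5.50 CPM. Of its 12 pairs of classes next to each other in this order, 0 had separate ranges. Hagh was also highest in IC (116 ± 26.4 CPM), ahead of PCT (106 ± 9.41) and DCT (89.2 ± 17.00), and lowest in TNK (8.03 ± 6.02). Nnt was highest in LOH (357 ± 210.2 CPM) and DCT (356 ± 199), whose ranges overlapped, and lowest in macrophages (23.8 ± 11.8).

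After PCT, the mean of Ggt1 was next highest in LOH (91.9 ± 11.5 CPM), then in DCT (32.5 ± 11.02), MD (30.7 ± 14.97) and DLH (8.89 ± 7.87), and its means were 2.40 CPM in CNT and below 1 CPM in PC, IC and podocytes. Its LOH range lay above its DCT range. Idh1 had stromal cells in second place (102 ± 15.95 CPM), with a range above that of DCT. G6pdx was low, from 12.4 ± 6.73 CPM in PCT to 38.6 ± 10.5 CPM in macrophages, and 0 of its 12 pairs had separate ranges.

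**Figure D1:**
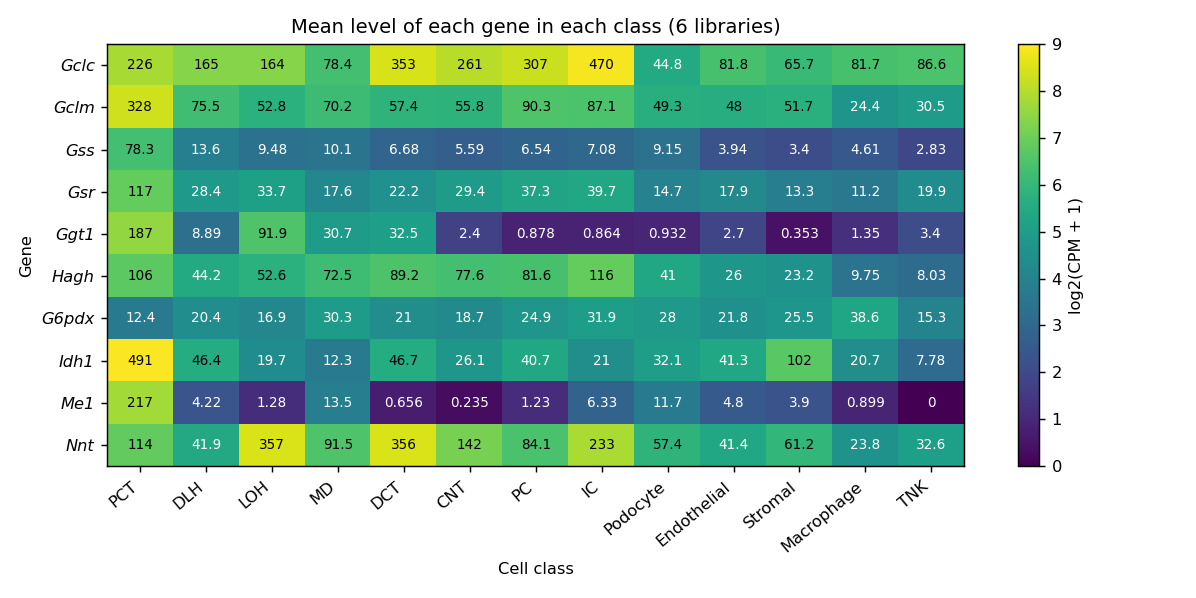
Mean level of each of the 10 genes (rows) in the 13 tested classes (columns) over 6 libraries, printed in CPM and coloured by log2(CPM + 1). PCT holds the highest value of Gclm, Gss, Gsr, Ggt1, Idh1 and Me1, IC that of Gclc and Hagh, LOH that of Nnt and macrophages that of G6pdx.

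Neutrophils, too few in WT to be tested, stood out for Gsr. In the 5 libraries that held such cells Gsr was at 491 CPM at the lowest, 886 at the median and 1007 at the highest, above every library of the 13 tested classes. G6pdx ran there from 16.5 to 374 CPM with a median of 200.2, and Gclm from 0 to 406 CPM with a median of 218. Gss had 0 UMIs in neutrophils. In monocytes, not tested either, Gsr was at 62.3 and 473 CPM in the 2 libraries with at least 10 such cells. Neutrophils use NADPH for the oxidative burst.

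Genotypes were then compared within each class on counts summed per mouse, to ask whether glutathione and NADPH genes differed where Prdm16 was deleted. The 10 members gave 92 tests over the 13 classes. With edgeR, 8 were called higher and 3 lower in KO at an adjusted p under 0.05, together 11.96% of the tests against 1.57% of all 98610 gene and class tests (0.817% higher and 0.752% lower). Nnt accounted for 7 of these calls, Hagh for 3 and Ggt1 for 1. The median log2 fold change was 0.04 over the member tests and 0.0011 over all tests. Every KO library lay above every WT library in 17 of the 92 tests and below in 13 (18.5% and 14.1%), against 7.37% and 8.88% of all tests. Nnt gave 10 of the 17 and Hagh 8 of the 13. These shares thus rest mostly on Nnt and Hagh, each counted over several classes of the same mice, and do not show a shift of all members.

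By class, 2 of 9 members tested were called in LOH, where 4.32% of all genes were. The counts were 2 of 9 in CNT (2.88% of all genes), 3 of 9 in DCT (1.02%), 1 of 8 in PC (2.54%), 1 of 9 in podocytes (1.95%), 1 of 7 in MD (1.22%) and 1 of 9 in IC (0.974%). Of the other classes, 0 of 9 members were called in PCT (0.0347% of all genes), 0 of 4 in DLH (0%), 0 of 7 in endothelial cells (0.206%), 0 of 6 in stromal cells (0.054%), 0 of 5 in macrophages (0.583%) and 0 of 1 in TNK (0.0255%). In those 6 classes edgeR gave 1, 0, 1, 1, 0 and 0 members at an unadjusted p under 0.05, each time Nnt. Of all genes, 161 of 2885, 299 of 4333, 785 of 8732, 454 of 5560, 530 of 4974 and 206 of 3921 had such a p. DESeq2 called 0, 0, 1, 0, 0 and 0 members, and its share over all genes is not given here. Me1 was too low to test in 10 classes and Ggt1 in 8.

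**Figure D2:**
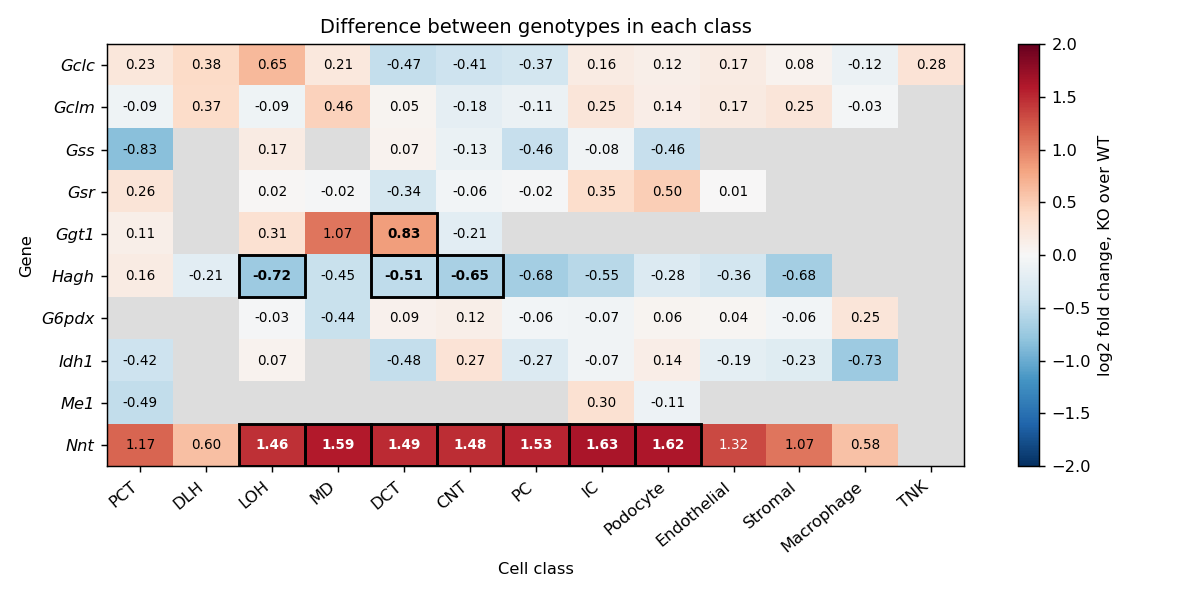
Log2 fold change of KO over WT for each gene (rows) in each class (columns), from edgeR on counts summed per library. Framed bold values passed an adjusted p of 0.05, and grey cells were not tested. The Nnt row runs from 0.58 to 1.63 in the 12 classes tested, and the Hagh row is negative in 10 of 11.

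Nnt, the mitochondrial source of NADPH (chr13:119335448-119408997, minus strand, GRCm38), was higher in KO from the loop of Henle to the collecting duct cells and in podocytes. LOH cells held 194, 193 and 186 CPM in the WT mice against 333, 576 and 657 CPM in the KO mice, replicates 1 to 3 of each group in this order, as in all values that follow. The WT mice were nearly equal, and every KO mouse stood well above them. The difference was 2.74-fold (log2 change 1.46, SE 0.20, adjusted p = 0.00132 by edgeR). In DCT Nnt was at 187, 176 and 196 CPM in the WT mice against 405, 563 and 612 CPM in the KO mice (1.49, SE 0.15, adjusted p = 0.000225). IC held 125, 106 and 117 CPM in the WT mice against 195, 436 and 419.6 CPM in the KO mice (1.63, SE 0.26, adjusted p = 0.0140). The groups were separate in both.

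The same separation of Nnt held in 4 further classes with edgeR calls. CNT held 88.6, 57.8 and 82.7 CPM in the WT mice against 145, 216 and 260.0 CPM in the KO mice (1.48, SE 0.23, adjusted p = 0.00318). PC held 52.3, 35.4 and 44.9 CPM in the WT mice against 80.04, 145 and 147 CPM in the KO mice (1.53, SE 0.24, adjusted p = 0.00454). MD held 55.4, 40.9 and 43.7 CPM in the WT mice against 105, 143 and 162 CPM in the KO mice (1.59, SE 0.21, adjusted p = 0.000103). Podocytes, glomerular cells outside the tubule, gave a difference of the same size, with 30.01, 25.3 and 28.2 CPM in the WT mice against 65.6, 89.9 and 105 CPM in the KO mice (1.62, SE 0.18, adjusted p = 0.00125).

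In the remaining classes Nnt did not pass the edgeR threshold, though its groups were also separate in PCT, endothelial cells and stromal cells. PCT held 96.5, 85.5 and 51.6 CPM in the WT mice against 104, 159 and 187 CPM in the KO mice (1.17, SE 0.39, adjusted p = 0.555). There the separation hung on KO replicate 1, just above the highest WT library, with 11 cells and 19314 UMIs of all genes. Endothelial cells had 24.7, 17.2 and 27.9 CPM in the WT mice against 38.6, 50.8 and 89.4 CPM in the KO mice (1.32, SE 0.33, adjusted p = 0.145), where DESeq2 did make the call. Stromal cells had 38.2, 39.8 and 41.4 CPM in the WT mice against 69.2, 82.97 and 95.7 CPM in the KO mice (1.07, SE 0.27, adjusted p = 0.185). The groups overlapped in DLH, macrophages and TNK. A test of the genotype effect between classes gave an adjusted p of 0.257 for Nnt, so a difference in effect between classes was not shown.

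The KO mice were unequal in Nnt. Over the 7 called classes KO replicate 1 was at 1.68 to 2.36 times the WT mean, KO replicate 2 at 2.83 to 3.75 times and KO replicate 3 at 3.29 to 3.79 times, so KO replicate 1 stood between the WT mice and the rest of its group in each. KO replicate 1 is also a library with Xist. In the 4 libraries without Xist all 7 calls were kept, with a log2 fold change of 1.71, adjusted p = 0.000144 in LOH and 1.87, adjusted p = 0.000541 in IC by edgeR. Leaving out single libraries ended a call in IC only, without WT replicate 2 (adjusted p = 0.0535), WT replicate 3 (0.0670) or KO replicate 2 (0.0630). With mitochondrial UMIs limited to 30% of a cell the estimates were 1.23, adjusted p = 0.380 in LOH and 1.31, adjusted p = 0.159 in IC. Strain at Nnt and Prdm16 genotype cannot be told apart here, because the strain of each mouse is not given.

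**Figure D3:**
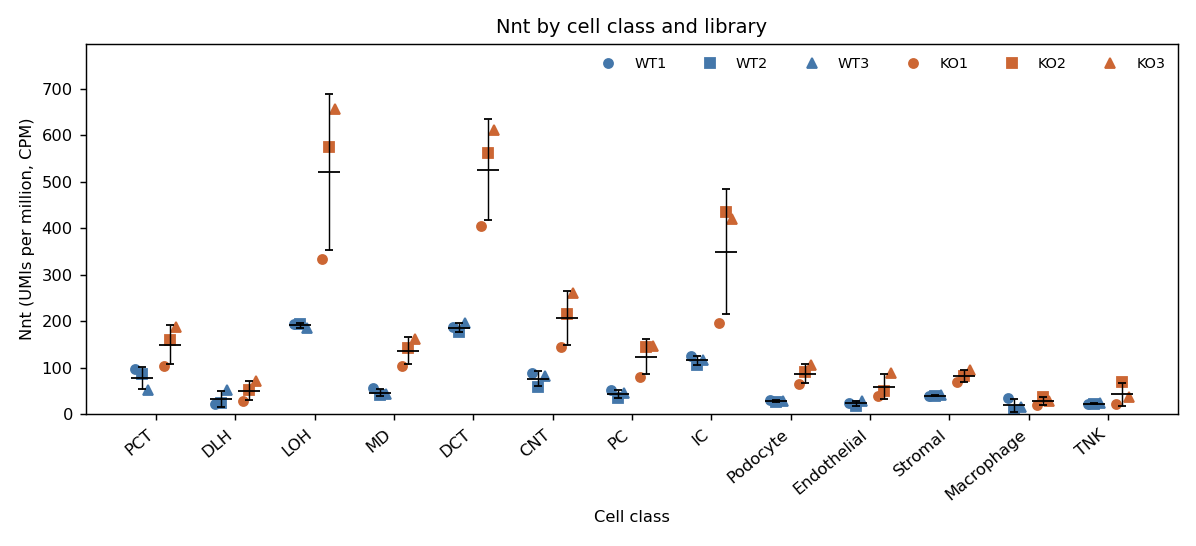
Nnt in CPM (y axis) for each library in the 13 classes (x axis), with WT in blue, KO in orange, a symbol for each replicate, and black bars for the mean ± SD of the 3 libraries. In LOH the WT libraries sit at 186 to 194 CPM and the KO libraries at 333 to 657 CPM, and KO replicate 1 is the lowest KO library in each of the 7 called classes.

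Hagh, which regenerates glutathione in the glyoxalase pathway (chr17:24840143-24864450, plus strand, GRCm38), was called lower in KO in LOH, CNT and DCT. In LOH it was at 60.1, 67.03 and 69.5 CPM in the WT mice against 34.8, 43.5 and 40.8 CPM in the KO mice. The highest KO library fell short of the lowest WT library by a wide margin. WT stood 1.65-fold over KO (log2 change −0.72, SE 0.12, adjusted p = 0.00372 by edgeR). In CNT Hagh was at 96.4, 94.2 and 95.9 CPM in the WT mice against 60.7, 63.1 and 55.5 CPM in the KO mice (−0.65, SE 0.12, adjusted p = 0.00892). DCT had 105, 109 and 99.2 CPM in the WT mice against 74.7, 71.6 and 75.8 CPM in the KO mice (−0.51, SE 0.11, adjusted p = 0.0425), where DESeq2 did not make the call. The replicates of each group were close together in CNT and DCT, and the groups did not overlap.

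IC and PC missed the edgeR threshold with estimates of like size for Hagh. IC held 125, 145 and 146 CPM in the WT mice against 87.2, 99.3 and 92.6 CPM in the KO mice (−0.55, SE 0.12, adjusted p = 0.0627), where DESeq2 made the call. PC held 98.4, 112 and 95.5 CPM in the WT mice against 47.4, 61.6 and 75.1 CPM in the KO mice (−0.68, SE 0.18, adjusted p = 0.0783). All KO libraries were below all WT libraries in 8 of the 13 classes, with MD, endothelial cells and stromal cells beside the 5 named. PCT was the exception in sign, with 118, 94.7 and 96.8 CPM in the WT mice against 104, 115 and 106 CPM in the KO mice and overlapping groups (0.16, SE 0.34, adjusted p = 0.997). The genotype effect was not shown to differ between classes (adjusted p = 0.691).

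The LOH call of Hagh held without each library in turn and in the 4 libraries without Xist (−0.62, adjusted p = 0.0461, edgeR), but not with the 30% mitochondrial limit (−0.61, adjusted p = 0.677). In CNT it was lost without KO replicate 1 (adjusted p = 0.0671) and in the 4 libraries (0.0895). In DCT it was lost without WT replicate 1 (0.161), 2 (0.108) or 3 (0.0925), without KO replicate 1 (0.210), 2 (0.173) or 3 (0.0640), and in the 4 libraries (0.262). Of 17 alternatives in all, the DCT call was kept in 4. The sign stayed negative in each of these fits.

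**Figure D4:**
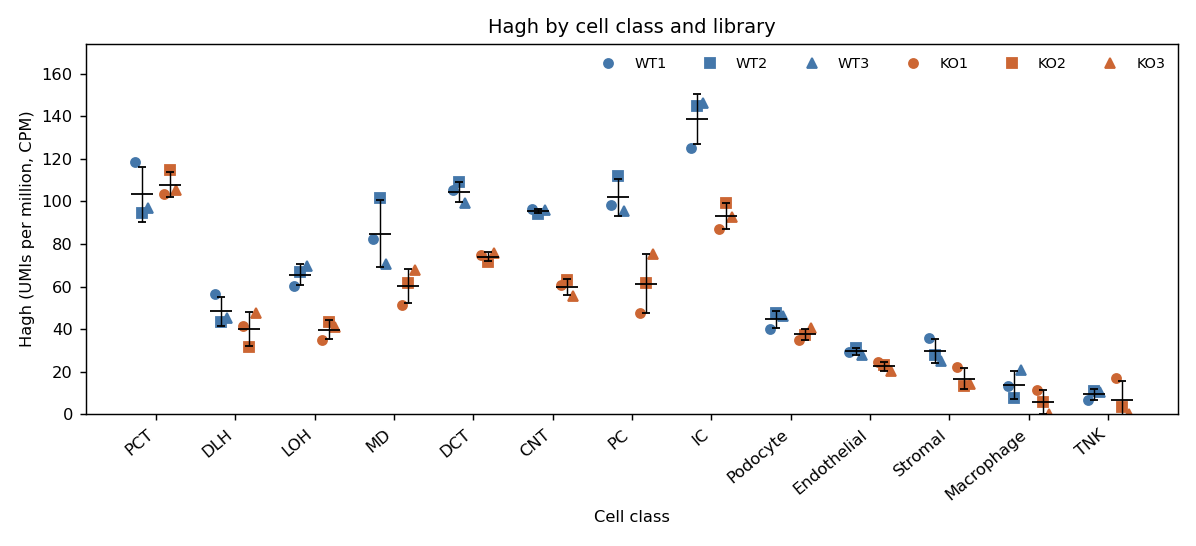
Hagh in CPM (y axis) for each library in the 13 classes (x axis), with WT in blue, KO in orange, a symbol for each replicate, and black bars for the mean ± SD of the 3 libraries. In CNT the WT libraries sit at 94.2 to 96.4 CPM and the KO libraries at 55.5 to 63.1 CPM, whereas the groups overlap in PCT.

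Gclc, the catalytic subunit gene of the rate-limiting enzyme (chr9:77754535-77794485, plus strand, GRCm38), had estimates of opposite sign in neighbouring nephron segments, none past the threshold by itself. In LOH it was at 114, 140.1 and 126 CPM in the WT mice against 273, 145 and 186 CPM in the KO mice (log2 change 0.65, SE 0.17, adjusted p = 0.0525 by edgeR). In DCT it was at 395, 444 and 387 CPM in the WT mice against 271, 335 and 287 CPM in the KO mice (−0.47, SE 0.11, adjusted p = 0.0551). CNT held 271, 345 and 285 CPM in the WT mice against 264, 203 and 199 CPM in the KO mice (−0.41, SE 0.13, adjusted p = 0.169). KO lay wholly above WT in LOH and wholly below it in DCT and CNT, although KO replicate 2 in LOH and KO replicate 1 in CNT came close to the WT range. In PC the groups overlapped, with 283, 347 and 417 CPM in the WT mice against 239, 270.4 and 286 CPM in the KO mice (−0.37, SE 0.18, adjusted p = 0.399). In IC, its highest class, they overlapped too, with 391, 447 and 502 CPM in the WT mice against 545, 475 and 457 CPM in the KO mice (0.16, SE 0.13, adjusted p = 0.699). DESeq2 called Gclc in LOH and DCT.

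The difference of the genotype effect between classes did pass for Gclc. It was the 1 member of 10 called in the joint edgeR test over all classes (adjusted p = 0.00721), which called 6.46% of all genes. Relative to LOH, its log2 fold change of KO over WT differed by −1.18 in DCT (adjusted p = 0.0111, 0.143% of genes called), by −1.08 in CNT (adjusted p = 0.00938, 0.626%) and by −1.02 in PC (adjusted p = 0.0151, 0.845%). KO replicate 1, the highest LOH library, decided all 4 calls. Without it the joint adjusted p was 0.213, and the differences were −0.89 in DCT (adjusted p = 0.474), −0.92 in CNT (0.129) and −0.70 in PC (0.431). In the 4 libraries without Xist the joint adjusted p was 0.540. The DCT difference was also lost without WT replicate 1 (adjusted p = 0.0729), the CNT difference without WT replicate 2 (0.0510) and the PC difference without WT replicate 3 (0.191). The sign was negative in all of these fits.

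Markers of other classes moved beside Gclc. In LOH cells the 9 IC markers, all detected, summed to 29.8 to 38.9 CPM in WT and 54.7 to 125 CPM in KO, and the 11 of 12 PCT markers detected (Slc5a2 at 0) to 10.8 to 78.8 and 16.3 to 23.1 CPM. In IC cells the IC list stood at 6223 to 7492 CPM in WT and 6949 to 8329 CPM in KO. In DCT cells the 6 CNT markers, all detected, summed to 20127 to 23885 CPM in WT and 14272 to 15119 CPM in KO. The 6 DCT markers of these same cells, all detected, summed to 3695 to 4100 CPM in WT and 4332 to 4705 CPM in KO. The part of these shifts in the Gclc values, and in those of Hagh, Ggt1 and Nnt from the same DCT cells, was not tested. In the IC cells behind the Nnt and Hagh values above, the CNT, PC, LOH and macrophage lists were lower in every KO library. All markers of these lists were detected. The 6 CNT markers summed to 13543 to 17195 CPM in WT and 4705 to 11561 CPM in KO, and the 9 PC markers to 3458 to 4325 and 1978 to 2732 CPM. The 8 LOH markers summed to 457 to 651 CPM in WT and 307 to 449 CPM in KO. The 7 macrophage markers summed to 12.6 to 14.2 and 6.41 to 12.1 CPM. Other ranges were separate too, and those given here are not all. In PC cells the 6 CNT markers summed to 2143 to 3469 CPM in WT and 1017 to 1668 CPM in KO. In CNT cells the 9 IC markers summed to 105 to 162 and 41.8 to 70.97 CPM. In podocytes their own 8 markers summed to 23519.5 to 27417 and 19365 to 21891 CPM. The DCT and PC lists were lower in every KO library in LOH and MD cells, as were the DLH and LOH lists in podocytes. In MD cells the DLH list was higher in every KO library. The part of these shifts in the Nnt, Hagh, Gclc and Ggt1 values was not tested.

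**Figure D5:**
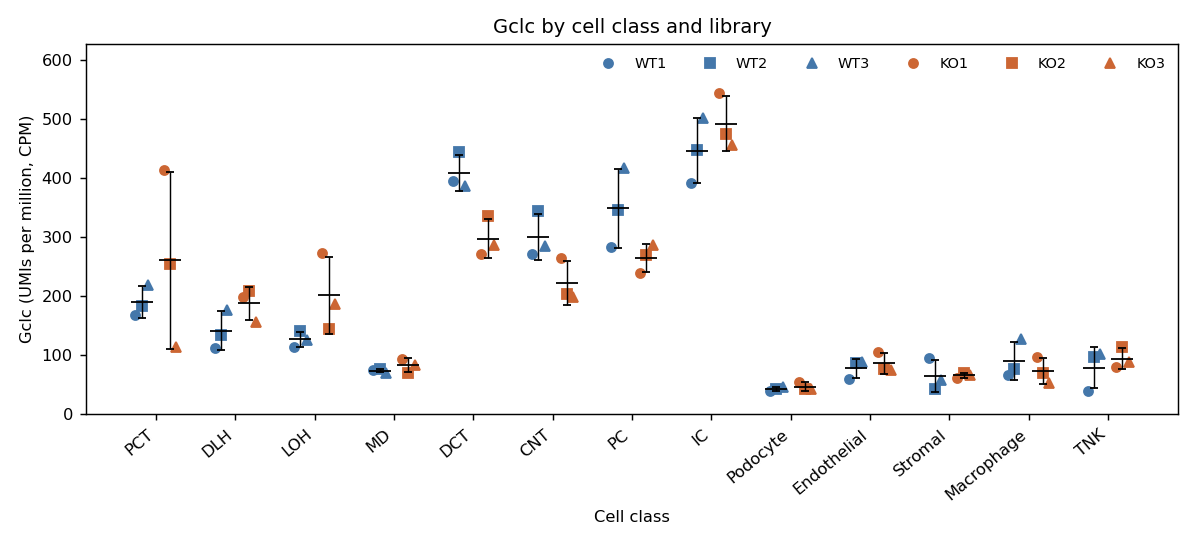
Gclc in CPM (y axis) for each library in the 13 classes (x axis), with WT in blue, KO in orange, a symbol for each replicate, and black bars for the mean ± SD of the 3 libraries. In LOH the KO libraries (145 to 273 CPM) lie above the WT libraries (114 to 140 CPM), and in DCT they lie below (271 to 335 CPM against 387 to 444 CPM).

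Gclm and Gss, the other synthesis genes, gave no call. Gclm in LOH was at 54.7, 52.5 and 56.01 CPM in the WT mice against 50.3, 54.5 and 49.04 CPM in the KO mice (log2 change −0.09, SE 0.10, adjusted p = 0.699 by edgeR), and the groups overlapped. Over its 12 tested classes the log2 fold change ran from −0.18 to 0.46, with 7 estimates above 0 and a lowest adjusted p of 0.502, in MD. Gss had 1546 UMIs in all retained cells. In podocytes it was at 10.7, 10.8 and 10.3 CPM in the WT mice against 8.40, 8.25 and 6.43 CPM in the KO mice, all KO libraries below all WT libraries (−0.46, SE 0.19, adjusted p = 0.230). Over 7 tested classes 5 of its estimates were below 0.

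Ggt1, whose enzyme opens the breakdown of glutathione outside the cell (chr10:75561604-75586200, plus strand, GRCm38), was higher in KO in DCT. There it was at 21.5, 21.99 and 26.04 CPM in the WT mice against 41.4, 35.8 and 48.1 CPM in the KO mice, with no overlap, a 1.78-fold difference (log2 change 0.83, SE 0.17, adjusted p = 0.0281 by edgeR). In LOH it was at 79.7, 88.3 and 77.9 CPM in the WT mice against 100.2, 100.8 and 104 CPM in the KO mice, a narrow but complete separation (0.31, SE 0.09, adjusted p = 0.0751). MD held 17.2, 26.8 and 15.1 CPM in the WT mice against 44.3, 52.8 and 28.04 CPM in the KO mice, also separate (1.07, SE 0.32, adjusted p = 0.130). In PCT, its main site, the groups overlapped at 115, 193 and 264 CPM in the WT mice against 104, 229 and 219 CPM in the KO mice (0.11, SE 0.44, adjusted p = 0.9999). The DCT call was lost without either of WT replicates 1 and 2 (adjusted p = 0.123 and 0.0836) or of KO replicates 1 and 3 (0.116 and 0.0993), and in the 4 libraries without Xist (0.81, adjusted p = 0.150). In DCT cells the 8 LOH markers, all detected, summed to 4368 to 5394 CPM in WT and 5268 to 8545 CPM in KO, and the 12 PCT markers, all detected, to 8.29 to 156 and 4.598 to 16.05 CPM, and their part in the Ggt1 values was not tested.

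Gsr, the recycling enzyme gene, was apart between genotypes in the sum of all cells. Over all retained cells it was at 28.9, 30.6 and 31.8 CPM in the WT mice against 47.2, 40.8 and 38.9 CPM in the KO mice, without overlap (log2 change 0.49, SE 0.09, adjusted p = 0.0615 by edgeR). Neutrophils numbered 0, 31 and 19 in the WT libraries and 223, 66 and 54 in the KO libraries. With neutrophils left out of the sum Gsr was at 28.9, 28.9 and 31.3 CPM in the WT mice against 28.8, 28.6 and 32.4 CPM in the KO mice, and the groups overlapped. In LOH it was at 33.7, 34.2 and 32.6 CPM in the WT mice against 33.00, 32.1 and 36.3 CPM in the KO mice, again overlapping (0.02, SE 0.11, adjusted p = 0.961). The KO libraries were above the WT libraries in podocytes, with 10.95, 11.96 and 13.4 CPM in the WT mice against 17.00, 17.8 and 17.1 CPM in the KO mice (0.50, SE 0.16, adjusted p = 0.133), and in IC, with 31.9, 34.8 and 39.1 CPM in the WT mice against 39.9, 41.9 and 50.7 CPM in the KO mice (0.35, SE 0.15, adjusted p = 0.410). In podocytes the 7 neutrophil markers, all detected, summed to 0.657 to 1.68 CPM in WT and 6.43 to 26.2 CPM in KO. In IC cells, with Mmp8 at 0, they summed to 0.192 to 0.473 and 0.707 to 11.4 CPM. Their part in the Gsr values was not tested.

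The cytosolic NADPH genes gave no call in any class. G6pdx, the entry enzyme gene of the pentose phosphate pathway, had log2 fold changes from −0.44 to 0.25 over 10 classes, with 5 estimates on each side of 0 and a lowest edgeR adjusted p of 0.725. Idh1 in DCT was at 50.3, 57.8 and 53.7 CPM in the WT mice against 35.3, 38.9 and 44.2 CPM in the KO mice, with no overlap (−0.48, SE 0.14, adjusted p = 0.168). In LOH it was at 21.1, 17.98 and 18.7 CPM in the WT mice against 20.1, 18.9 and 21.5 CPM in the KO mice (0.07, SE 0.13, adjusted p = 0.852), where the groups overlapped. Over its 10 tested classes 7 Idh1 estimates were below 0. In the sum of all retained cells Idh1 was at 38.5, 48.3 and 44.4 CPM in the WT mice against 29.1, 29.8 and 28.6 CPM in the KO mice, all KO libraries below all WT libraries (−0.57, SE 0.11, adjusted p = 0.0719). PCT, the class with most Idh1, held 36, 162 and 221 of the WT cells and 11, 37 and 14 of the KO cells in that sum.

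Me1 could be tested in PCT, IC and podocytes. In PCT it was at 246, 149 and 385 CPM in the WT mice against 155, 204 and 162 CPM in the KO mice (log2 change −0.49, SE 0.41, adjusted p = 0.919 by edgeR). In podocytes it was at 11.2, 15.2 and 9.23 CPM in the WT mice against 11.1, 9.54 and 14.1 CPM in the KO mice (−0.11, SE 0.23, adjusted p = 0.854). The groups overlapped in both. In the sum of all retained cells Me1 was at 6.45, 7.83 and 20.9 CPM in the WT mice against 3.58, 5.36 and 4.96 CPM in the KO mice, without overlap (−1.34, SE 0.49, adjusted p = 0.253), and WT replicate 3, the library with most PCT cells, was the highest.

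Over all retained cells Hagh was the 1 member of 10 called with edgeR, where 1.07% of all genes were. With edgeR 5 members had an unadjusted p under 0.05 (Gsr, Hagh, Idh1, Me1 and Nnt), as did 2318 of all 15162 genes tested. DESeq2 called the same 5, and its share over all genes is not given here. Hagh was at 82.1, 86.7 and 85.7 CPM in the WT mice against 53.5, 53.9 and 55.5 CPM in the KO mice (−0.62, SE 0.09, adjusted p = 0.0398), with each group within a few CPM. The edgeR call was lost on leaving out each WT replicate in turn (adjusted p = 0.0947, 0.130 and 0.120) or without KO replicate 1 or 2 (0.121 and 0.146), and in the 4 libraries without Xist (0.273). Nnt was at 109, 94.9 and 112 CPM in the WT mice against 174, 324 and 398 CPM in the KO mice (1.55, SE 0.32, adjusted p = 0.0836), separate but with a wide KO spread. Gclc was at 226, 255 and 256 CPM in the WT mice against 274, 201 and 222 CPM in the KO mice (−0.07, SE 0.13, adjusted p = 0.846), and the groups overlapped.

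PCT cells have a high share of mitochondrial UMIs, so the class was read again without a limit on that share. The WT libraries then gave 70, 1028 and 1033 such cells and the KO libraries 32, 617 and 359, with a median mitochondrial share of 36.2% to 78.9% in WT libraries and 64.6% to 90.6% in KO libraries. With edgeR 0 of 10 members were called, where 0.295% of all genes were, and DESeq2 called 0. By edgeR 2 members had an unadjusted p under 0.05 (Me1 and Nnt), as did 649 of all 8123 genes tested. Me1 was at 165, 73.3 and 142 CPM in the WT mice against 67.3, 30.8 and 44.5 CPM in the KO mice, all KO libraries below all WT libraries (−0.87, SE 0.37, adjusted p = 0.560). Idh1 was at 479, 283 and 152 CPM in the WT mice against 89.7, 78.5 and 132 CPM in the KO mice, also without overlap (−0.73, SE 0.42, adjusted p = 0.723). Ggt1 was at 92.3, 113 and 105 CPM in the WT mice against 56.1, 56.2 and 74.9 CPM in the KO mice, without overlap in CPM, yet its edgeR estimate, scaled by TMM, was −0.06 (SE 0.44). Nnt was at 59.7, 34.3 and 22.9 CPM in the WT mice against 56.1, 26.7 and 58.1 CPM in the KO mice, which overlapped, with an estimate of 1.00 (SE 0.34, adjusted p = 0.350). In the 4 libraries without Xist the Nnt estimate was 1.37, adjusted p = 0.0357, a call by edgeR. CPM and the scaled estimate thus gave different pictures in these cells.

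RNA outside retained cells was read from barcodes below 500 UMIs. There edgeR called 0 of 10 members (0% of all genes). By edgeR 4 members had an unadjusted p under 0.05 (Hagh, Idh1, Me1 and Nnt), as did 1462 of all 13876 genes tested. DESeq2 called 2, Hagh and Nnt, and its share over all genes is not given here. Nnt was at 109.9, 81.1 and 91.3 CPM in the WT mice against 131, 181 and 289 CPM in the KO mice (1.15, SE 0.27, adjusted p = 0.199). Hagh was at 42.3, 47.05 and 44.4 CPM in the WT mice against 29.2, 20.4 and 29.8 CPM in the KO mice (−0.70, SE 0.09, adjusted p = 0.0522). Both had separate groups and the sign they had in LOH. With this RNA subtracted according to proximal tubule transcripts, an estimated 1.71% to 2.04% of LOH UMIs, the LOH estimates were 1.46, adjusted p = 0.00125 for Nnt and −0.73, adjusted p = 0.00384 for Hagh. The LOH share rested on 1 proximal UMI in KO replicate 1 and on 11 in WT replicate 1, so it is a rough estimate. In CNT the estimated share reached 100% in KO replicate 1, and there the estimates were 1.21, adjusted p = 0.876 for Nnt and −0.51, adjusted p = 0.571 for Hagh.

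The rest of the pathway was followed through 35 listed genes of cysteine and glutamate supply, glutathione breakdown and use, and NADPH supply. They gave 258 tests over the 13 classes, of which edgeR called 6, each higher in KO, 2.33% against 1.57% of all tests. LOH had 3 of 26 called, where 4.32% of all genes were. Idh2, the mitochondrial isocitrate dehydrogenase gene, was at 610.0, 565 and 576 CPM in the WT mice against 779, 785 and 722 CPM in the KO mice (0.38, SE 0.08, edgeR adjusted p = 0.0147). Cth, whose enzyme cystathionine gamma-lyase makes cysteine, was at 11.3, 7.52 and 8.08 CPM in the WT mice against 13.3, 16.97 and 14.6 CPM in the KO mice (0.75, SE 0.19, edgeR adjusted p = 0.0407). Aldh1l1, the gene of a folate enzyme that yields NADPH, was at 159, 151 and 149 CPM in the WT mice against 188, 201 and 188 CPM in the KO mice (0.33, SE 0.08, edgeR adjusted p = 0.0431). The groups did not overlap in any of the 3.

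Outside LOH, Cth was also higher in CNT, 1 call among 24 tested genes, with 36.5, 33.8 and 38.4 CPM in the WT mice against 71.2, 61.3 and 76.1 CPM in the KO mice (0.98, SE 0.15, edgeR adjusted p = 0.00244). Idh2 was higher in podocytes, 1 of 23, with 103, 87.6 and 89.4 CPM in the WT mice against 198, 156 and 164 CPM in the KO mice (0.88, SE 0.11, edgeR adjusted p = 0.00379). The groups were separate in both. Of all genes, edgeR called 2.88% in CNT and 1.95% in podocytes. Over all retained cells 1 of 35 was called, where 1.07% of all genes were. This was Dpep1, the gene of a brush border dipeptidase late in glutathione breakdown. It was at 0.674, 1.45 and 1.27 CPM in the WT mice against 0.0617, 0.0872 and 0.0407 CPM in the KO mice (−4.08, SE 0.51, edgeR adjusted p = 0.0248). The KO values rest on very few UMIs. The number of PCT cells per library differed as given above, with 36 in WT replicate 1 and 37 in KO replicate 2. Its part in the Dpep1 values was not tested.

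Genes whose pattern over the 13 classes was most like that of each member were found by Pearson r of log2(CPM + 1) class means among 10166 genes. Near Nnt were mt-Nd5 (0.947) and mt-Nd4l (0.939), both mitochondrially encoded genes of respiratory complex I. Hagh ran most like Timm8b (0.983), Mrpl51 (0.977) and Nfs1 (0.969), genes of mitochondrial import, translation and iron-sulfur assembly. Gclc was nearest to Cycs (0.925), Gfm2 (0.921) and Pdhb (0.921), while Xpnpep1 (0.960) and Park7 (0.949) were near Gclm. Gss was nearest to Nceh1 (0.960), Igfbp1 (0.956) and Nat8f1 (0.951), Gsr to Tsta3 (0.913), Xpnpep1 (0.911) and Cpox (0.910), and Ggt1 to Nr1h4 (0.942), Asb9 (0.896) and Cdhr5 (0.882). Idh1 was nearest to Zfp568 (0.927), Blvra (0.894) and Zfp444 (0.893), Me1 to Tprkb (0.942), Pter (0.908) and Hykk (0.893), and G6pdx to Idua (0.864), Hexa (0.862) and Nbn (0.830). The 13 points share the same 6 libraries, and means of small classes rest on few UMIs.

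Genes within 1 Mb of the members were read beside them in LOH, where 4.32% of all genes were called. Of 7 tested neighbours of Nnt 1 was called, Tmem267, 79.0 kb away and with the opposite sign, at 4.26, 3.60 and 5.16 CPM in the WT mice against 1.79, 1.48 and 1.68 CPM in the KO mice (−1.40, edgeR adjusted p = 0.0191). Of 52 neighbours of Hagh 3 were called, Jpt2 (−0.65, edgeR adjusted p = 0.0282) and Metrn (−0.73, edgeR adjusted p = 0.0186) lower and Msrb1, a methionine sulfoxide reductase gene, higher (0.53, edgeR adjusted p = 0.0237). Among the neighbours of the other members in LOH, 1 of 10 was called for Gsr (Rbpms, 0.55, edgeR adjusted p = 0.00572), 1 of 22 for Ggt1 (Specc1l, 0.64, edgeR adjusted p = 0.0269) and 1 of 34 for G6pdx (Renbp, 2.37, edgeR adjusted p = 0.0245). In DCT, where 1.02% of all genes were called, the 1 neighbour called was Msrb1, of 48 tested for Hagh (0.94, edgeR adjusted p = 0.0130). Neighbours were named after their values were seen.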

How the data were processed

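Renal cortex of 3 WT and 3 KO mice was captured on BD Rhapsody, and the authors deposited 1 matrix of UMI counts per mouse, made with the BD whole-transcriptome pipeline on mm10, with Scanpy 1.8 for later steps. Counts per cell are raw. Barcodes with 500 to 60000 UMIs, 200 to 8000 genes and at most 50% mitochondrial UMIs were kept, and the top 6% by doublet score of each library were removed, since the doublet caller marked too few. Cells were clustered in Scanpy 1.11.5 (Leiden, 2000 variable genes without the members, 30 components) and classes rebuilt from markers, so class names may differ from the study's. Leading genes of named clusters also held Lif and Gdf15 (PC), Nupr1 (podocytes), globin genes of red cells (DCT, CNT) and Ccl3, Ccl4 and Tnf (macrophages). Those of DLH held Gprc5a, Dkk3, Akap12, Krt19 and Psca. Counts were summed per mouse and class and tested in edgeR 4.0.16 (quasi-likelihood, TMM, filterByExpr with a minimum count of 10, two-sided, Benjamini-Hochberg over all genes of the class, R 4.3.3), with mouse as a term in the test between classes. DESeq2 1.42.0 and other settings were alternatives. The edgeR steps were tested on simulated data. Depth was 96382945 to 121198131 UMIs per library, and classes with few cells allow only large differences to be seen. Named genes were all 10 members, the called pathway genes and the 3 genes nearest in class pattern to each member, of which 3 are not reported here. Gene positions come from a GRCm38 annotation. The members, lists and tests were chosen with earlier results of these data known.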

Additional observations from a re-analysis of the deposited data

Results flagged for a closer look

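The genotype effect on Gclc differed between cell classes by the test of the difference itself. The joint edgeR test over all classes had an adjusted p of 0.00721. Against LOH, the log2 fold change of KO over WT differed by −1.18 in DCT (adjusted p = 0.0111), −1.08 in CNT (adjusted p = 0.00938) and −1.02 in PC (adjusted p = 0.0151). KO replicate 1 decided these calls: without it the joint adjusted p was 0.213 and the differences were −0.89, −0.92 and −0.70. In the 4 libraries without Xist the joint adjusted p was 0.540.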

How the results depend on the processing

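The 15 named tests were refitted under 227 alternatives in all. The direction never turned, 178 stayed past the threshold and 49 did not; the cause was not tested. Nnt in DCT, PC and podocytes kept its call in 17 of 17. The calls higher in KO, 8 in the report, were 4 with a 30% mitochondrial limit and 6 to 8 with a library left out. Those lower in KO, 3 in the report, were 6 with no filter on low counts, 5 with no mitochondrial limit, 1 in the 4 libraries without Xist, 1 with free RNA subtracted and 1 to 3 with a library left out. Over all retained cells, with 1 member called in the report, the count was 5 with DESeq2, 4 with no filter, 3 with the 30% limit, 0 with no limit, 2 with a block for libraries with Xist, 0 in the 4 libraries without Xist and 0 to 1 with a library left out. Below 500 UMIs, with 0 in the report, it was 2 with DESeq2, 2 with no filter and 0 to 1 with a library left out. In PCT without a mitochondrial limit, with 0 in the report, it was 1 in the 4 libraries without Xist. For the effect between classes, with 1 in the report, it was 3 with no filter, 0 in the 4 libraries and 0 to 2 with a library left out.

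Replicate numbers did not clearly pair the mice: of 42 correlations of same-numbered deviations, from −0.209 to 0.219, 9 were over 0.1. Over all retained cells they were 0.214, −0.0611 and 0.193 for replicates 1 to 3. All rest on the same 3 WT and 3 KO mice, so they cannot decide whether the mice were paired. With the number as a replicate block the counts were 8 higher and 3 lower within classes, 2 over all retained cells and 1 below 500 UMIs, and Hagh in DCT was −0.51 (edgeR adjusted p = 0.142).

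With no doublets removed, 11 of the 12 named tests within classes or over all cells kept their calls, and Hagh in DCT did not (−0.48, edgeR adjusted p = 0.0760). Removing the top 6% of doublet scores in every library was the main rule itself and so no separate alternative. MD could not be tested with the 30% limit, and DLH and TNK were not named with no limit. PCT rests on few cells, DLH and TNK on few UMIs per gene, and the subtraction of free RNA reached 100% of UMIs in CNT of KO replicate 1.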
